A study of Canis lupus familiaris with 10 samples.

Results

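The expression of 9 lineage transcription factors of T cells was examined in early and late canine cutaneous histiocytoma (CCH), a skin tumor of dogs that arises from Langerhans cells. The factors, chosen by gene symbol, were EOMES, TBX21, GATA3, FOXP3, BCL6, TOX, SATB1, TCF7, and LEF1, and all 9 were found among 23266 gene symbols in the table. CCH is known to regress while lymphocytes, most of them T cells, enter the tumor, and the labels divide the tumors by histological stage. Early CCH corresponds to group 1 and late CCH to group 3, the latter labeled as enriched for lymphocytes, with 5 tumors from different dogs of several breeds in each stage. An age was given for 4 early dogs (0.5 to 5 years) and for 5 late dogs (1.5 to 9 years). All 10 libraries were re-analyses of earlier samples and were made with QuantSeq 3′, a method that reads 1 fragment near the end of each transcript, from whole formalin-fixed, paraffin-embedded (FFPE) tumor tissue without sorting of cells.

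Lineage transcription factors bind DNA and set which genes a T cell can use. TBX21 (T-bet) and EOMES are T-box factors of type 1 helper, cytotoxic and natural killer cells. GATA3 directs type 2 helper cells, FOXP3 regulatory T cells and BCL6 follicular helper cells, whereas TCF7 and LEF1 keep naive and memory T cells and SATB1 and TOX act during thymic development and again in activated or exhausted cells. Several of these factors also work outside the T-cell lineage, GATA3 in the epidermis and hair follicle and BCL6 in B cells and dendritic cells.

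The libraries held 2973125 to 4439709 reads assigned to genes, and 1 read was worth 0.788 to 1.07 in normalized units. The limit that 0 reads allows, 3 reads, thus lay between 2.36 and 3.22. The lymphocytes named in the late label were checked for T cells with an index, the mean of log2(normalized read count + 1) of the T-cell genes CD3D, CD3E, CD3G, CD247, CD2, and CD5. The index was 2.64, 6.56, 8.06, 7.53, and 5.00 in early libraries 1 to 5 and 9.35, 8.89, 8.98, 9.39, and 9.10 in late libraries 1 to 5. Every late library exceeded every early library, and the early libraries differed far more among themselves (SD 2.19) than the late ones (SD 0.22). Early library 1 was almost without T-cell transcripts, with CD5 at 0. The share of RNA fragments over 200 bases (DV200) was 68.5% ± 2.46 in early and 73.2% ± 2.09 in late samples (SD, n = 5 each), and the study's RNA extraction batches held tumors of 1 stage each, so that stage and extraction batch cannot be told apart. In whole tissue, fewer cells of a type and less RNA per cell cannot be told apart either.

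A gene was tested if its normalized read count was at least 10 in at least 5 libraries, which left 12397 genes and 8 of the 9 factors. It was called differentially expressed at a limma p of at most 0.05 after Benjamini-Yekutieli (BY) adjustment over all tested genes together with a change of at least 1 on the log2 scale in either direction. The log2 fold change (log2FC) is late minus early on the scale of log2(normalized read count + 1), which understates the change of genes with few reads. EOMES and SATB1 were called higher in late CCH and none of the factors was called lower. The median log2FC of the 8 tested factors was 2.34 and that of all tested genes was -0.004. Over all tested genes, 2.17% were called in either direction and 1.06% were called higher. Of these calls 48.7% were higher in late CCH, and 64% with scaling by column totals, under which EOMES and SATB1 were still the factors called. The 8 include FOXP3, which reached the minimum mainly through 4 late libraries, so that neither the count nor the median over them carries weight as a comparison with other genes.

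**Figure D1:**
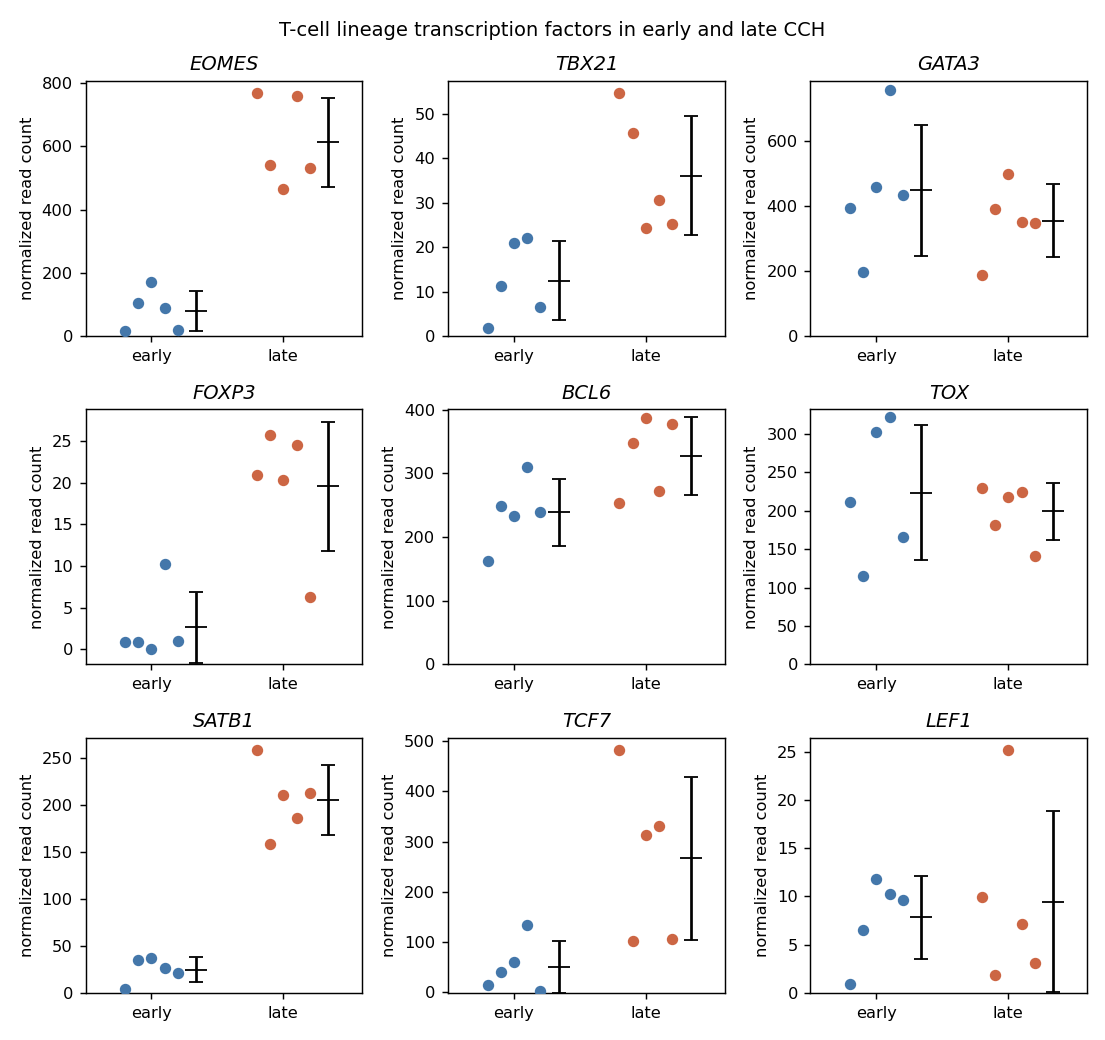
Normalized read counts (vertical axis, linear, own range per panel) of the 9 factors in the 5 early and 5 late libraries. Points are single tumors and bars give mean and SD. EOMES, SATB1, and TBX21 had every late tumor above every early tumor. For TOX all late values, and for GATA3 all but the lowest, lay within the early range.

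Among the T-box factors, EOMES rose with stage, its mean being 79.4 ± 64.2 in early and 612 ± 141 in late CCH (SD, n = 5 each). Its normalized read count was 16.2, 103, 170, 88.2, and 19.3 in early libraries 1 to 5 and 769, 539, 465, 759, and 530 in late libraries 1 to 5. The lowest late tumor exceeded the highest early tumor, and the early tumors with the least EOMES, libraries 1 and 5, were also those with the lowest T-cell index. The log2FC was 3.42 ± 0.56 (SE; 95% interval 2.21 to 4.63; limma, BY-adjusted p = 0.0331). Early tumors differed 10.5-fold from lowest to highest and late tumors 1.65-fold. With 1 library left out at a time, the adjusted p ranged from 0.0221 to 0.122 and EOMES was called only in the fits without early library 2, 3, or 4.

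TBX21, the other T-box factor and the defining factor of type 1 helper cells, was detected at far fewer reads, 71 in the early and 182 in the late libraries together. The single libraries gave 1.90, 11.2, 20.8, 22.1, and 6.44 in the early libraries and 54.7, 45.7, 24.2, 30.7, and 25.2 in the late libraries. All late tumors lay above all early tumors, though late library 3 and early library 4 lay close together. The log2FC of 1.74 ± 0.56 (SE; 95% interval 0.53 to 2.95) was not called (limma, BY-adjusted p = 0.526).

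Within single libraries, EOMES minus TBX21 on the log2 scale was 2.41 ± 0.70 in early and 4.09 ± 0.42 in late CCH (SD, n = 5 each). All early values lay below the lowest late value of 3.53, the late values reaching 4.58. The difference between the stages was 1.68, and 1.62 with 0.5 in place of 1 added to each value. This ratio was chosen after the values had been seen. An exact permutation test over the libraries was run on it, but its p carries no weight for that reason and is not given.

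The genes on which these factors are known to act in type 1 and cytotoxic lymphocytes did not pass the test. None of the 13 tested genes of the T-box and cytotoxic list was called, although 11 had a positive log2FC and the median of the 13 was 2.29. IFNG and FASLG met the minimum mainly through the late libraries, where they were high. Neither the number of positive changes nor the median therefore carries weight. At its upper end stood GZMK, a granzyme of cytotoxic and memory T cells, with 522 ± 529 in early and 3804 ± 1129 in late tumors (SD, n = 5 each; log2FC 3.63, BY-adjusted p = 0.0722 in limma). At its lower end stood CD244, a receptor of natural killer and T cells, with a log2FC of -1.24 (limma, BY-adjusted p = 0.836). Natural killer cells also express both T-box factors, and their markers summed to 22.8 to 97.7 in early and 97.8 to 208 in late libraries. Of this list, 4 of 7 genes were tested, 3 had a positive and 1 a negative log2FC, and none was called. The highest was KLRD1, a lectin receptor shared with cytotoxic T cells, at 2.99 (limma, BY-adjusted p = 0.0701), and the lowest KLRF1 at -0.42. KLRD1 also met the minimum mainly through the late libraries, so that neither its change nor the signs in this list carry weight. The part of natural killer cells in the EOMES result was not tested.

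The helper-subset factors showed no common pattern. GATA3 had a mean of 449 ± 201 in early and 356 ± 112 in late CCH (SD, n = 5 each). By library, its normalized count was 393, 198, 460, 758, and 436 in the early libraries and 189, 393, 499, 351, and 348 in the late libraries. All late values but the lowest lay within the early range, and the highest value belonged to early library 4. Even early library 1, in which T-cell transcripts were almost absent, carried 393, within the range of the late tumors. The log2FC was -0.28 ± 0.33 (SE; 95% interval -0.99 to 0.43; limma, BY-adjusted p = 1).

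The type 2 helper list showed no call. Of the 8 listed genes, 3 were tested and none was called, with a median log2FC of 0.62. CCR4, a chemokine receptor of skin-homing type 2 and regulatory T cells, had 5.06 in early and 17.8 in late tumors (log2FC 2.19; limma, BY-adjusted p = 0.927), and HPGDS, a prostaglandin D synthase, had 292 and 98.2 (log2FC -1.13; adjusted p = 1). CCR4 met the minimum mainly through the late libraries, where it was high, so that neither its change nor the list's median carries weight. The type 2 cytokine IL5 had 15 reads in all early and 1 read in all late libraries, IL13 had 2 and 0, and IL4 was not analyzed here. GATA3 is also a factor of the epidermis, where keratinocyte markers summed to 1157 to 19545 in early and 826 to 10992 in late libraries, with 12 of 12 genes tested and none called. In that list 11 genes had a negative log2FC, with a median of -0.99 and a range from -1.56 (DSG1, a desmosomal cadherin) to 0.26 (IVL, a protein of the cornified envelope). Hair follicle markers summed to 49.4 to 179 in early and 45.5 to 378 in late libraries, with 4 of 10 tested, none called, a median log2FC of 0.05 and a range from -0.40 (LHX2) to 1.28 (MSX2). The part of these cells in the GATA3 level was not tested.

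FOXP3, the defining factor of regulatory T cells, was near the limit of detection in early CCH. It was covered by 16 reads in the 5 early libraries and 13 of these came from early library 4, so that each of the other 4 held 1 read or none. Its normalized read count was 0.952, 0.930, 0, 10.2, and 1.07 in the early libraries and 20.9, 25.7, 20.3, 24.5, and 6.30 in the late libraries. Late libraries 1 to 4 exceeded every early library, and late library 5 fell below early library 4. The log2FC of 2.94 ± 0.72 (SE) was not called (limma, BY-adjusted p = 0.182) and shifted with the value added before the logarithm, from 1.74 with 5 to 3.36 with 0.5.

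Of 12 regulatory T-cell genes, 11 were tested and 1 was called, with a median log2FC of 1.74. TNFRSF4 (OX40), a costimulatory receptor of regulatory and activated T cells, rose from 4.83 ± 3.86 to 56.0 ± 39.6 (SD, n = 5 each; log2FC 3.38 ± 0.61 SE; limma, BY-adjusted p = 0.0479). It was below 10 in all 5 early libraries and met the minimum through the late ones, where it was high. Neither its call nor the list's median therefore carries weight. ENTPD1 (CD39), an ectonucleotidase of regulatory T cells and myeloid cells, stood at the other end of the list with 318 and 164 (log2FC -1.05; adjusted p = 0.323). IKZF2 (Helios) had a log2FC of 2.09 (adjusted p = 0.318) and CTLA4 of 1.84 (adjusted p = 0.649).

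BCL6, a transcriptional repressor of follicular helper T cells and germinal center B cells, had 239 ± 52.5 in early and 328 ± 61.2 in late CCH (SD, n = 5 each). The individual tumors had values of 163, 249, 233, 310, and 239 in the early libraries and 254, 348, 387, 273, and 378 in the late libraries. Late libraries 2, 3, and 5 exceeded all early tumors, while late libraries 1 and 4 lay within the early range. The log2FC of 0.46 ± 0.19 (SE; 95% interval 0.05 to 0.88) was not called (limma, BY-adjusted p = 1).

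Of 12 follicular helper genes, 11 were tested and 1 was called, with a median log2FC of 2.69. The cytokine IL21 rose from 5.27 ± 4.49 to 103 ± 74.4 (SD, n = 5 each; log2FC 4.13 ± 0.72 SE; limma, BY-adjusted p = 0.0426). It reached 10 in 1 early and 5 late libraries, so that the same limit holds. CXCR5, the receptor that draws these cells into follicles, had a log2FC of 3.13 (adjusted p = 0.491), and the lowest value of the list was -1.35 for BTLA, an inhibitory receptor (adjusted p = 1). CXCR5 also met the minimum mainly through late libraries, so that the limit extends to it and to the list's median. BCL6 is also expressed by B cells and dendritic cells. CD79B, a chain of the B-cell receptor, met the minimum mainly through late libraries as well, as did MS4A1 and CR2. Neither their changes nor the median of the B-cell list therefore carries weight. B-cell markers summed to 486 to 742 in early and 650 to 3506 in late libraries, with 7 of 11 tested, none called, a median of 2.93 and a range from -0.28 (CD22) to 4.67 (CD79B; adjusted p = 0.0562). The upper end was late library 3 alone, against a late median of 835, and this library also held the highest BCL6, whose log2FC was 0.40 without it. The sum of Langerhans and dendritic cell markers was 4058 to 6536 in early and 2965 to 4045 in late libraries, all late below all early, with 10 of 12 tested and a median of -0.93. FLT3, a receptor for dendritic cell growth, fell from 292 to 40.6 (log2FC -2.89 ± 0.50 SE; limma, BY-adjusted p = 0.0434). The list ended at -3.80 for CD1A8, a lipid-presenting molecule (adjusted p = 0.171), and at 1.27 for IRF8, a factor of dendritic cells and B cells (adjusted p = 0.217). The part of B cells and dendritic cells in the BCL6 level was not tested.

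TOX, a high-mobility-group (HMG) box factor of thymic CD4+ development and of exhausted T cells, had 223 ± 87.8 in early and 199 ± 37.7 in late CCH (SD, n = 5 each). By library, its normalized count was 211, 115, 302, 321, and 166 in the early libraries and 230, 182, 218, 225, and 141 in the late libraries. Every late value lay within the early range. In the RefSeq annotation of the newer dog assembly UU_Cfam_GSD_1.0, LOC102152621 overlaps TOX, at 26.4 in early and 19.2 in late tumors. The log2FC was -0.09 ± 0.27 (SE; 95% interval -0.68 to 0.50; limma, BY-adjusted p = 1). Its relative TOX2 had 72.2 ± 84.8 and 308 ± 71.5 (log2FC 2.94 ± 0.69 SE) and was not called (adjusted p = 0.147). Among 8 inhibitory receptor genes, which TOX is known to maintain in exhausted cells, 7 were tested and none was called, with a median of 2.17, a log2FC of 3.09 for TIGIT (adjusted p = 0.169) and one of 2.90 for PDCD1 (adjusted p = 1).

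SATB1, a chromatin organizer of thymocytes and T cells, rose with stage, with 24.7 ± 13.4 in early and 205 ± 37.2 in late CCH (SD, n = 5 each). Its normalized read count was 3.81, 35.4, 37.1, 26.0, and 21.5 in the early libraries and 259, 158, 210, 186, and 213 in the late libraries. The lowest late tumor was more than 4 times as high as the highest early tumor, and early library 1 was again the lowest. The log2FC was 3.28 ± 0.48 (SE; 95% interval 2.24 to 4.32; limma, BY-adjusted p = 0.0206). Without single libraries, the adjusted p ranged from 0.00808 to 0.0733 and the call was lost without early library 5 or late library 1, 2, 4, or 5. In the same RefSeq annotation the uncharacterized gene LOC102152799 overlaps SATB1. It had 6.15 in early and 65.9 in late tumors and was also called higher (log2FC 3.60; adjusted p = 0.0450). Reads were counted on CanFam3.1, and the use of strand in counting was not stated. Whether reads of the 2 genes were kept apart is therefore not known.

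TCF7 (TCF-1), an HMG-box factor of naive, memory and stem-like T cells, had 50.6 ± 51.8 in early and 267 ± 162 in late CCH (SD, n = 5 each). The single libraries gave 15.2, 40.9, 60.6, 134, and 2.15 in the early libraries and 482, 103, 313, 330, and 106 in the late libraries. Late libraries 1, 3, and 4 lay above all early tumors, and late libraries 2 and 5 lay below early library 4. The log2FC of 2.99 ± 0.84 (SE; 95% interval 1.16 to 4.82) was not called (limma, BY-adjusted p = 0.322). Among the late tumors it ranged from 103 to 482.

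LEF1, the close relative of TCF7 that shares its DNA-binding HMG box, was below the minimum for testing and gave 43 reads in all early and 48 in all late libraries. The individual tumors had values of 0.952, 6.51, 11.8, 10.2, and 9.66 in the early libraries and 9.94, 1.90, 25.2, 7.16, and 3.15 in the late libraries. The stages overlapped, with both a high and several low values in late tumors. Without the minimum, the log2FC was 0.07 ± 0.75 (SE; limma, BY-adjusted p = 1 over 22072 genes). In the newer annotation LEF1 overlaps LOC100687917, which had 340 in early and 280 in late tumors, and LOC111093692, which was at 0 in all libraries. For LEF1 and TOX, too, it is not known whether reads of the overlapping genes were kept apart.

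The 2 HMG-box relatives were set against each other within libraries. TCF7 minus LEF1 on the log2 scale was 1.93 ± 2.12 in early and 4.85 ± 0.77 in late CCH (SD, n = 5 each). The stages met at their edges, with a highest early value of 3.59 and a lowest late value of 3.58. The difference of 2.92 rests on the few reads of LEF1 and, in early library 5, on 2 reads of TCF7, below the limit of 3 reads. This ratio was put to the same exact test, and it too was chosen after the values had been seen, so that its p carries no weight either. Of 12 naive and memory T-cell genes, the group in which both factors are known to act, 10 were tested and 1 was called, with a median log2FC of 2.10. TXK, a kinase of T-cell receptor signaling, rose from 13.0 ± 10.2 to 117 ± 55.1 (log2FC 3.28 ± 0.57 SE; limma, BY-adjusted p = 0.0436). The chemokine receptor CCR7 had a log2FC of 2.38 (adjusted p = 0.252), and the lowest value was 0.24 for IL7R, the interleukin-7 receptor.

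**Figure D2:**
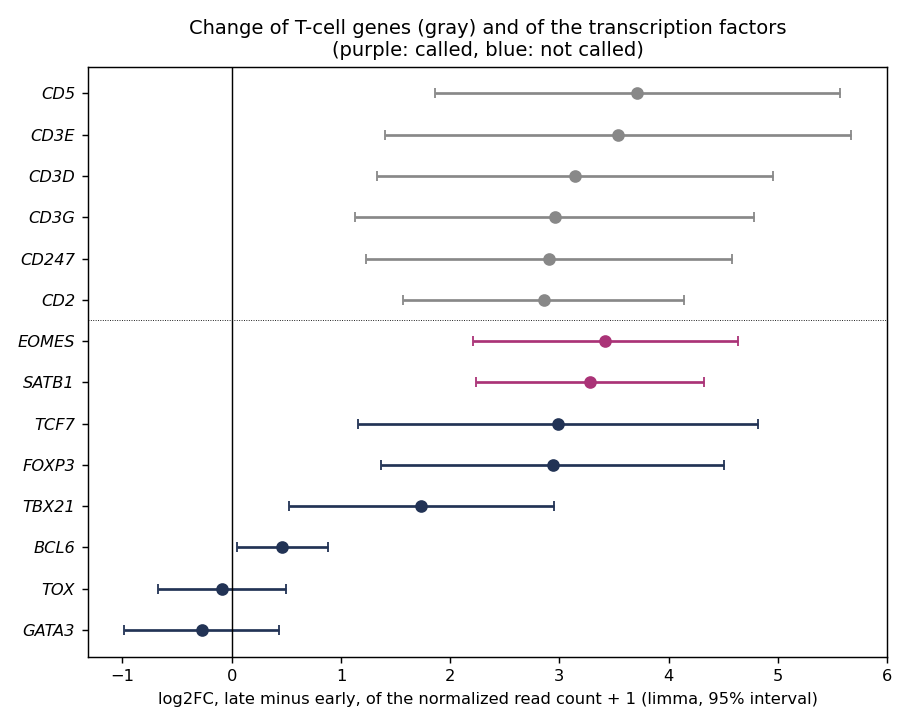
The log2FC (late minus early, horizontal axis) with 95% limma intervals for the 6 T-cell index genes in gray and the 8 tested factors, purple where called and blue where not. LEF1 was not tested. EOMES, SATB1, and TCF7 had a log2FC from 2.99 to 3.42, within the range of the T-cell index genes (2.86 to 3.71). TBX21 was at 1.74, and GATA3, TOX, and BCL6 lay between -0.28 and 0.46. FOXP3 was at 2.94, but at 1.74 with 5 and 3.36 with 0.5 added before the logarithm, so that its place is not settled.

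Of the 9 factors, EOMES, SATB1, and TBX21 thus had all late tumors above all early tumors, an order shown by 5.91% of all tested genes. The T-cell genes themselves showed that order too, in 6 of 6 index genes, yet none of the 6 was called. Their log2FC ranged from 2.86 for CD2 to 3.71 for CD5, with adjusted p values from 0.0853 for CD2 to 0.332 for CD3G (limma, BY). The intervals of EOMES and SATB1 were narrower than those of CD3E or CD5. Of the wider list of 18 T-cell surface and signaling genes, 17 were tested, all 17 had a positive log2FC, and CD6 alone was called (13.9 ± 10.5 in early and 156 ± 19.6 in late tumors; log2FC 3.85 ± 0.58 SE; adjusted p = 0.0226). UBASH3A, TRAT1 and THEMIS met the minimum mainly through the late libraries, where they were high, so that the number of positive changes carries no weight. The list ran from 2.21 for CD8B to 4.00 for CD28, a costimulatory receptor (adjusted p = 0.0797).

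Each factor was then set against the T-cell index of its own library, to describe its level relative to T-cell transcripts. EOMES minus the index was -0.15 ± 1.00 in early and 0.09 ± 0.16 in late CCH (SD, n = 5 each). SATB1 gave -1.57 ± 1.18 and -1.47 ± 0.24, TCF7 gave -1.14 ± 1.78 and -1.34 ± 0.88, and FOXP3 gave -4.67 ± 2.36 and -4.91 ± 0.79. These 4 factors differed little in mean between the stages on this scale. FOXP3 held 1 read or none in 4 early libraries, and its difference moved from 0.12 with 0.5 added to -1.22 with 5 added. The 95% interval of the difference, from a linear model without moderation, was -0.80 to 1.28 for EOMES, -1.15 to 1.34 for SATB1, -2.24 to 1.85 for TCF7 and -2.81 to 2.32 for FOXP3. All 4 intervals reach above 1, the size needed for a call, and those of TCF7 and FOXP3 span large changes in either direction.

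The other factors had lower means relative to the index in late than in early tumors. GATA3 minus the index was 2.73 ± 2.16 in early and -0.73 ± 0.68 in late CCH, TOX gave 1.75 ± 2.06 and -1.52 ± 0.28, and BCL6 gave 1.92 ± 1.93 and -0.80 ± 0.48. For all 3 every late library lay below every early library, an order that 68% of all tested genes shared on this scale. TBX21 gave -2.56 ± 0.97 and -4.00 ± 0.51, and LEF1, at few reads, gave -3.07 ± 1.34 and -6.19 ± 1.21. GATA3 was called lower on this scale (log2FC -3.46; limma, BY-adjusted p = 0.0427), whereas TOX (-3.27; adjusted p = 0.0552), BCL6 (-2.72; adjusted p = 0.145) and TBX21 (-1.45; adjusted p = 1) were not. Because the index itself was higher in late tumors, the median of all genes was -3.19 and 33.3% of all genes were called lower, and the value of GATA3 lay close to that median. The index also adds the same spread to every gene, which moderation across genes treats as independent. GATA3 was called in 3 of 10 fits that left out 1 library. Without moderation it had an adjusted p of 0.297 and 0 of 12397 genes were called, with 10537 at an unadjusted p of at most 0.05 in the same limma model.

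**Figure D3:**
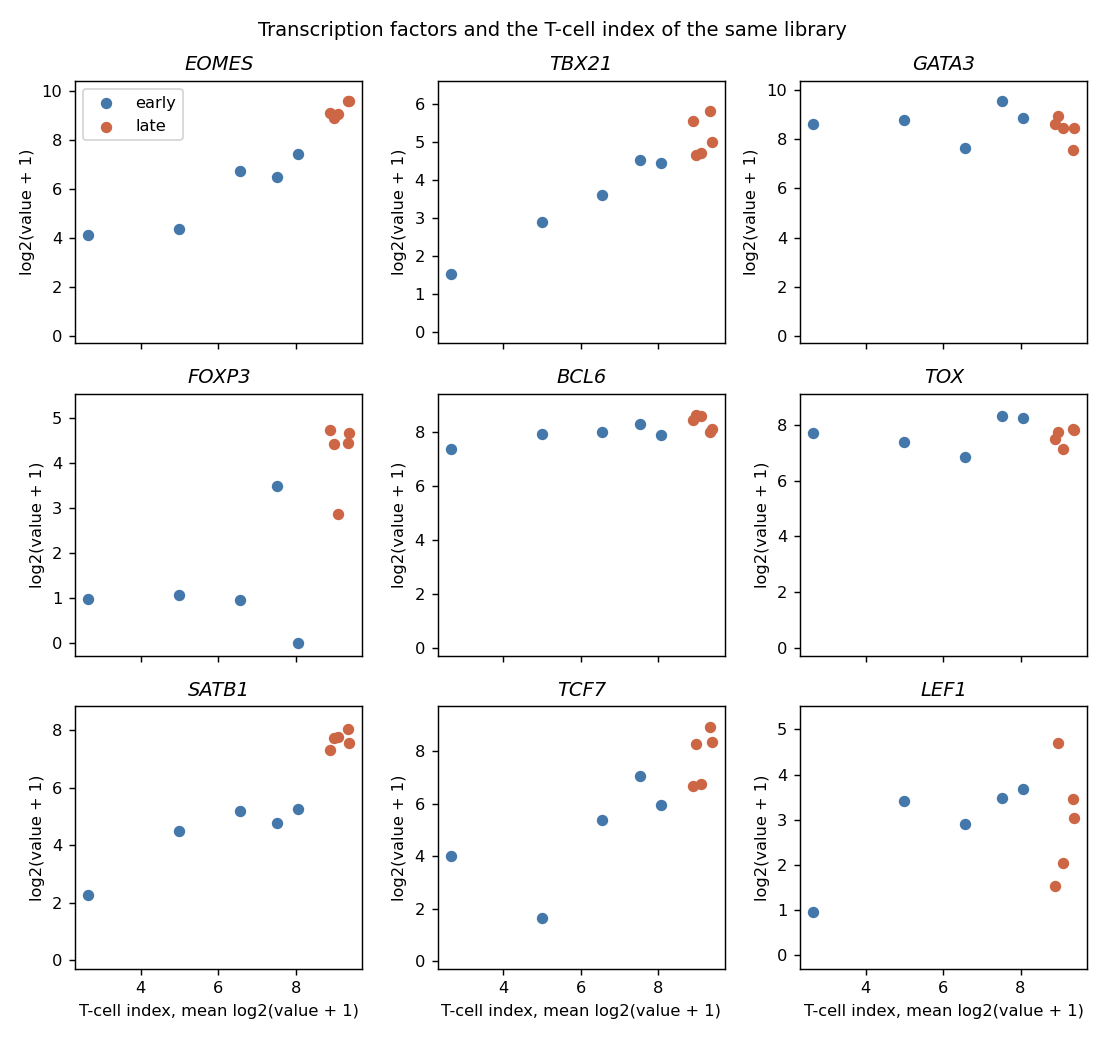
Log2(normalized read count + 1) of each factor (vertical axis) against the T-cell index (horizontal axis, mean log2 of 6 T-cell genes) in the 10 libraries, early and late tumors in separate colors. EOMES, SATB1, and TCF7 were lowest where the index was low, whereas GATA3, BCL6, and TOX differed far less between an index of 9.39 and one of 2.64.

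How the factors varied among tumors of 1 stage was described by the Pearson correlation of deviations from the stage mean over the 10 libraries. The libraries share the T-cell content and depth of each tumor, and the partner is the highest of 157 tested list genes, so that no p was given. EOMES was most like SH2D1A (r = 0.989), an adaptor of T and natural killer cells, which was also its closest match among all tested genes, followed by PCED1B (r = 0.978) and LOC480600 (r = 0.972). SH2D1A had 88.2 in early and 611 in late tumors (log2FC 3.41; limma, BY-adjusted p = 0.0756). TBX21 was most like GZMK (r = 0.954), SATB1 like CD5 (r = 0.948) and TCF7 like CD244 (r = 0.905). EOMES, TBX21, SATB1, and TCF7 varied more among early than among late tumors, so that their correlations rest mainly on the early ones. Most of the 157 genes came from lymphocyte lists. GATA3 was most like HPGDS (r = 0.898), TOX like IKZF2 (r = 0.837) and BCL6 like CD1A6 (r = 0.841), a CD1 gene of antigen-presenting cells. FOXP3 was most like VWF (r = 0.848), an endothelial gene, at the few reads given above.

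Of 34 other T-cell transcription factors, 29 were tested and 1 was called, with 26 positive and 3 negative log2FC and a median of 0.73. EGR2, a zinc-finger factor induced by T-cell receptor signaling, rose from 59.6 ± 18.4 to 344 ± 150 (SD, n = 5 each; log2FC 2.46 ± 0.29 SE; limma, BY-adjusted p = 0.00812). IKZF3 (Aiolos), a lymphocyte factor, had the highest log2FC of the list at 3.03 ± 0.66 (adjusted p = 0.106), and ZBTB7B (ThPOK), the factor of the CD4+ lineage, had the lowest at -0.90 ± 0.26 (adjusted p = 0.375). Among 24 relatives of the 9 factors in their gene families, 10 were tested and 1 was called, with a median of 0.78. TCF7L2, a relative of TCF7 used in Wnt signaling of many tissues, rose from 58.8 ± 37.8 to 196 ± 41.2 (log2FC 1.89 ± 0.34 SE; adjusted p = 0.0495). The list ran from -0.29 for FOXP2 to 2.94 for TOX2, and FOXP1 had 598 in early and 558 in late tumors (log2FC -0.07).

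**Figure D4:**
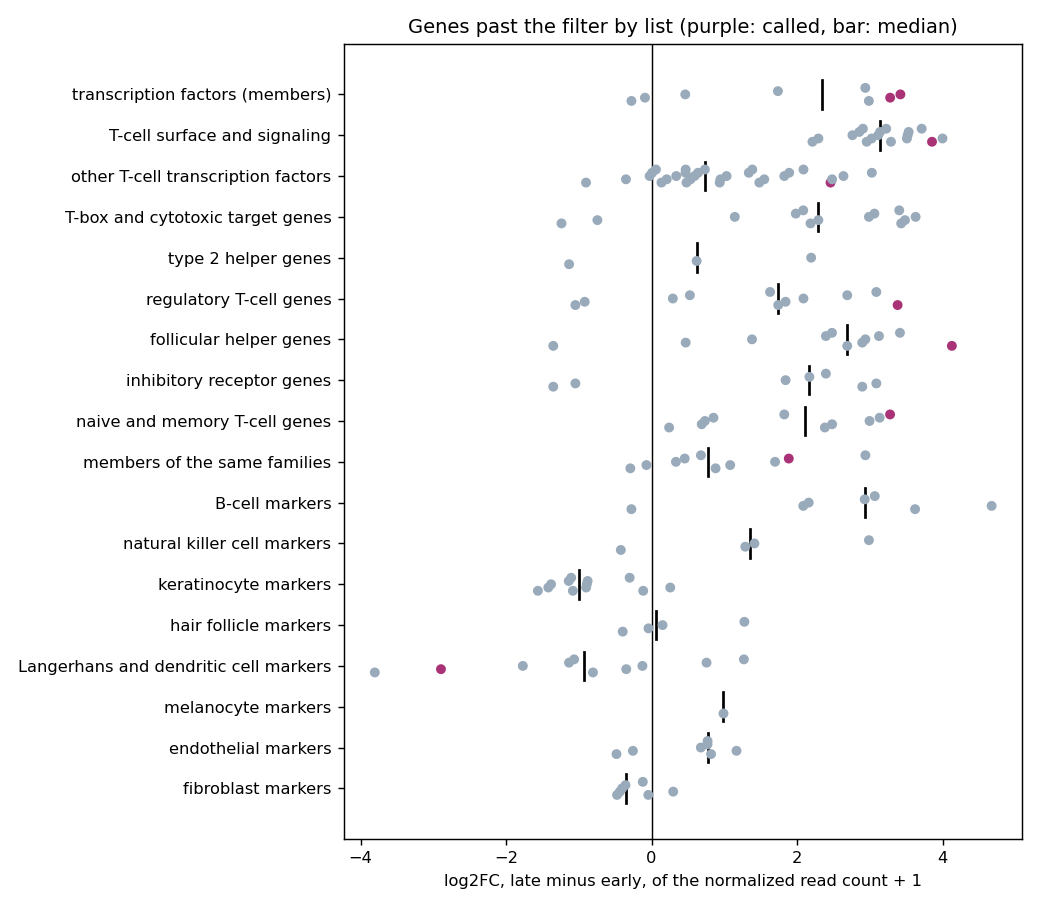
The log2FC (late minus early, horizontal axis) of all tested genes of each list, with called genes set apart by color and a bar at the list's median. T-cell lists had medians from 1.74 to 3.14 except the type 2 helper list at 0.62, other T-cell transcription factors 0.73, and the keratinocyte, dendritic cell and fibroblast lists medians below 0. The B-cell list stood at 2.93 and the natural killer list at 1.35. In several lymphocyte lists, genes met the minimum mainly through late libraries, where they were high. The medians of these lists carry no weight as a comparison.

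Other cell types of the tissue were measured for the same tumors. Endothelial markers had a median log2FC of 0.77 with 7 of 7 tested and none called, from -0.48 (TEK) to 1.17 (CLDN5), and summed to 521 to 916 in early and 591 to 1252 in late libraries. Fibroblast markers had a median of -0.36 with 7 of 7 tested and none called, from -0.47 (LUM) to 0.30 (PDGFRB), and summed to 7742 to 60728 and 10713 to 35886. Of 7 melanocyte markers, MITF alone was tested (log2FC 0.98, not called), and the list summed to 80.5 to 288 and 199 to 467. The late-versus-early p-values above rest on the spread between dogs, moderated across genes. The moderated p-values relative to the index rest almost wholly on a spread pooled over genes. The part of each of these cell types in the factors' levels was not tested.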

How the data were processed

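Early (group 1) and late (group 3) canine cutaneous histiocytomas were profiled with QuantSeq 3′ from formalin-fixed tissue, 5 dogs per stage. The authors trimmed reads with Cutadapt, aligned them to CanFam3.1 with STAR, counted them per gene with featureCounts, counted reads left without a gene once more on genes extended 2 kb downstream, shared multi-mapped reads evenly, and divided the counts by DESeq2 size factors; versions are not given in the sources used here. The deposited values are this normalized signal per gene. Of 21 value columns, 11 match no sample by name and entered no step. All values above 0 were whole multiples of 1 read within 0.01 read, which gave back whole reads for depth and count tests. Evenly shared multi-mapped reads would leave fractions, and how the whole numbers arose is not known. Read numbers may therefore not be exact for genes with such reads. Detection limits cover counting error only, and the methods name no molecular identifiers.

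Genes that reached 10 in 5 or more libraries were fitted with limma 3.58.1 (trend, R 4.3.3) on log2(value + 1), with Benjamini-Yekutieli adjustment over all genes. Changes relative to the T-cell index used the same fit after subtraction of the index. Columns name the stage of a tumor and not its sample, so libraries were numbered in column order within a stage. Alternatives were edgeR 4.0.16 and DESeq2 1.42.0 on whole reads, other scalings, pseudocounts, filters, adjustments, weights and leaving out each library in turn. Named genes were the 9 factors and, per list, the highest and lowest log2FC and up to 3 called genes; genes named beyond these were chosen after their values were seen, as were the 2 within-library ratios. The factors and lists were chosen with earlier results of these data known. The fits were also run on simulated counts. These held no shift or shared spread of the T-cell index, so that they do not bear on the calls relative to the index. A comparison of protein sequences was not made here. Neighboring genes came from RefSeq (UU_Cfam_GSD_1.0), by name only, with 9 of 9 factors matched.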

Additional observations from a re-analysis of the deposited data

Results flagged for a closer look

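FOXP3 in early library 4 was 10.24, far from the next early value of 1.07, the gap taking up most of the range of the 5 early libraries. FOXP3 in late library 5 was 6.295, far below the next late value of 20.3. These 2 values make the stages overlap. Of 18 sets of 5 libraries examined (9 factors in 2 stages), 2 held such a stray value, and chance gives about 1 in 20.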

How the results depend on the processing

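No paired analysis was possible because early and late tumors come from different dogs and columns bear no replicate number. Where a value changed, the cause was not tested unless fewer libraries or genes show it. The number of genes called, 269, was 1121 with Benjamini-Hochberg adjustment, 418 with library weights, 177 with edgeR, 810 with DESeq2 and 49 (without early library 5) to 260 without single libraries. The number of factors called, 2, was 4 with Benjamini-Hochberg adjustment, which added TCF7 (adjusted p = 0.0322) and FOXP3 (0.0182), 1 with robust moderation and 1 with edgeR, in both SATB1 without EOMES (0.0682 and 0.0576), and 0 to 2 without single libraries (0 without early library 5 or late library 1, 2, 4, or 5; 1 without early library 1 or late library 3). EOMES was called in 3 of 10 and SATB1 in 5 of 10 such fits, with a log2FC from 2.95 to 3.82 and from 2.75 to 3.50 over all alternatives. Relative to the T-cell index, where 1 factor was called, 0 were called with 0.5 added, without the minimum, with library weights, with a CD3 index or without moderation (chosen after seeing the data), 2 with 5 added or a mean of at least 50, 3 with Benjamini-Hochberg adjustment or the larger index, and 0 to 3 without single libraries. The factors with all late above all early tumors numbered 3 under every scaling and 3 to 6 without single libraries (6 without early library 4). Signs turned for TOX (log2FC -0.30 to 0.065 without single libraries) and, relative to the index, for FOXP3 (0.12 with 0.5 added, 0.20 with weights, -1.10 to 0.50 without single libraries), SATB1 (-0.21 to 0.39) and TCF7 (-0.75 to 0.43). FOXP3 and LEF1 rested on few reads, and FOXP3 missed the minimum under column-total scaling and in 5 of 10 fits without a library.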
